A study of Brassica napus with 12 samples.

Results

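In oilseed rape (Brassica napus) leaves kept under water for 24 h, 60 coding sequences stood lower than in air in the cultivar Avatar and higher than in air in the cultivar Zhongshuang 9. They were chosen from 101040 sequences by measured values. A sequence qualified when all 3 submerged Avatar libraries lay below all 3 Avatar air libraries and all 3 submerged Zhongshuang 9 libraries lay above all 3 Zhongshuang 9 air libraries. Of the 168 sequences with this ordering, the 60 with the largest difference in the weaker of the 2 cultivars became the members. The difference is the mean of log2(TPM + 1) under submergence minus that in air, and TPM is an abundance corrected for length and scaled to the same total in each library. The opposite ordering, higher under submergence in Avatar and lower in Zhongshuang 9, was met by 436 sequences.

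The samples are first true leaves, taken at an age of 16 days, of submerged Zhongshuang 9, Zhongshuang 9 in air, submerged Avatar and Avatar in air, with 3 libraries in each of the 4 groups. Day length was 8 h and temperature about 23 °C. Plants were covered fully with tap water from day 15, 2 h into the light period, while control plants stood in like boxes without water. No genotype change or other agent is named for any group, so by the labels the groups differ in cultivar and in water alone. Replicates carry the numbers 1, 3 and 4, and values of 3 libraries are given in that order below. The labels do not say whether a library holds 1 plant or several, or whether replicates come from separate sowings, so p-values measure the spread between these samples, which may be technical.

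Water slows gas exchange and dims light, and a submerged leaf accumulates the gaseous hormone ethylene while oxygen can run short, above all in darkness. Plants answer through ethylene signalling and through ERF transcription factors that are destroyed when oxygen is plentiful, and the known response includes fermentation, sugar use and a slowing of growth. Oilseed rape is an allotetraploid with an A and a C set of chromosomes, so that many genes exist as a related A and C copy whose transcripts need not respond alike. A sequence such as BnaC07g26170D is named by its chromosome (C07) and a number that orders genes along it, and nn marks one with no place on a chromosome. The files pair none of the 60 members with a function, so no role is given here for any of them, and neither could the leaf label be checked against marker genes.

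Libraries held 24389813 to 35873196 estimated counts. A sequence listed at 0 may still have up to 3 counts, or 0.0836 to 0.123 CPM (counts relative to the library's sum). These floors cover counting error only. Zhongshuang 9 submergence replicate 1 stood apart from the other replicates of its group, with a Spearman rank correlation of 0.89 to each, while those 2 reached 0.988 with each other. Of 2243 sequences that differed by at least 2 on the log2(TPM + 1) scale between the other submerged Zhongshuang 9 libraries and submerged Avatar, 29.07% stood nearer to Avatar in that library. Shares found in the same way were 8.67% and 9.10% for the other submerged Zhongshuang 9 libraries and 0.78% to 1.59% for the Zhongshuang 9 air libraries. For the Avatar libraries they were 7.94% to 22.97%, with the highest in Avatar air replicate 1. The neighbours of all 10 members on C08 were lowered, by their medians, in Avatar submergence replicate 1 and Zhongshuang 9 air replicate 4. Avatar air replicate 3 was raised along part of A03. Among the neighbours of 4 of the 5 members there the median was 0.42 to 0.61 on the log2(TPM + 1) scale. Avatar air replicate 1 was lowered around all 5, with medians of -0.63 to -0.32 among their neighbours. Leaving it out moved no member's difference by more than 1.5 times. It did change the list, since the rule applied anew without it kept 29 of the 60 members, the fewest for any single library. Without it 402 sequences met the ordering. Differences that a single library moved by more than 1.5 times are given with and without it.

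Among the members the submergence difference lay between -2.58 and -0.41 in Avatar, with a median of -0.76, and between 0.39 and 2.47 in Zhongshuang 9, with a median of 0.74. These values chose the members and are a description. Over the 79454 sequences above 0 in some library, 27.9% had all submerged Zhongshuang 9 libraries above all air libraries and 13.0% had all submerged Avatar libraries below them. The last members inside the limit were BnaC02g22400D, with a smaller difference of 0.40, and BnaC01g09390D with 0.39. Just outside came BnaC09g25870D and BnaCnng06070D, each with 0.39.

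**Figure D1:**
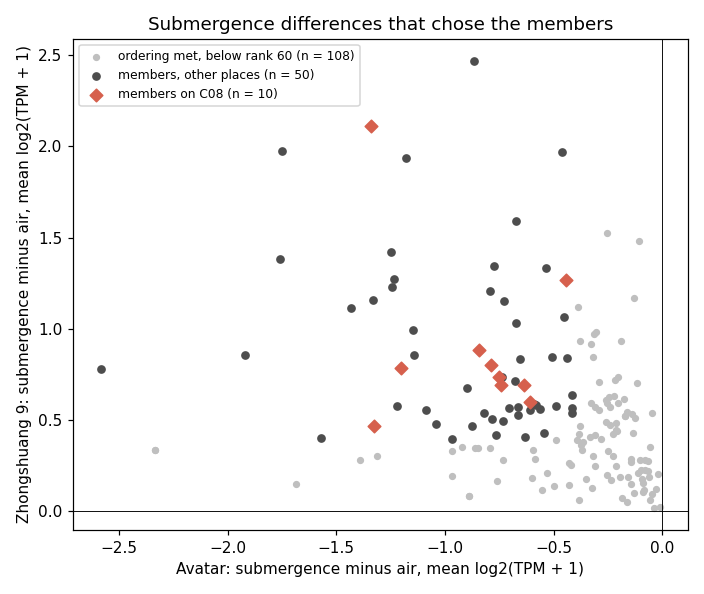
Submergence minus air in mean log2(TPM + 1), Zhongshuang 9 on the vertical axis and Avatar on the horizontal axis, for the 168 sequences with the ordering. Grey points lie below the limit, dark points and red diamonds the 60 members, of which 10 lie on C08. Differences in Zhongshuang 9 reach 2.47 and in Avatar -2.58, and no gap separates members from the rest.

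The scale matters for this ordering. TPM and library totals put the median sequence higher under submergence. When counts were scaled by library totals, the median over all tested sequences stood at a log2 fold change of 0.29 in Zhongshuang 9 and 0.45 in Avatar, against 0.01 and 0.11 with TMM factors, which centre on the bulk of genes. On TMM-scaled CPM, 32 of the 60 members kept the full ordering and 28 did not. The weakest Zhongshuang 9 differences lie close to this shift. BnaC02g22400D was 0.40 higher on the log2(TPM + 1) scale in submerged Zhongshuang 9, but its fitted log2 fold change with TMM factors was 0.15. By the same fit, 57 members had enough counts to be tested. Of these, 22 passed the threshold as higher in submerged Zhongshuang 9 (background over all tested sequences 22.5%) and 45 as lower in submerged Avatar (background 18.4%). The difference between the responses passed for 27 members, against a background of 0.438% called in this direction (edgeR quasi-likelihood test, adjusted p under the threshold of 0.05). The members were picked on these contrasts, so nothing is read from those counts.

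Of the 57 members, 16 passed the threshold for both responses and for their difference (background 0.0772% of tested sequences). The rule used these contrasts, so the 16 serve only to order the description. All 16 also kept the ordering on the TMM scale, and no single library moved either of their log2(TPM + 1) differences by more than 1.5 times. The calls themselves were less steady: with single libraries left out, 7 to 14 of the 16 passed all 3 tests, with 7 without Zhongshuang 9 air replicate 3. BnaA03g00270D, BnaA05g34210D, BnaC01g19760D, BnaC04g45720D, BnaC05g05090D, BnaC07g23920D and BnaC07g26170D passed all 3 in each of the 21 alternatives, and the other 9 did not. BnaA03g00270D, on A03, had 27.6, 23.0 and 25.1 TPM in submerged Zhongshuang 9, against 9.22, 8.03 and 9.99 TPM in Zhongshuang 9 air. In Avatar it had 1.28, 2.72 and 2.26 TPM under submergence, against 6.64, 11.3 and 10.5 TPM in air. The cultivars overlapped in air and stood far apart under water. BnaC07g26170D showed the same picture at a lower level, with 8.54, 9.57 and 8.96 TPM in submerged Zhongshuang 9 against 3.66, 2.71 and 2.02 TPM in Zhongshuang 9 air. Its Avatar libraries held 0.526, 0.387 and 0.365 TPM under submergence, against 3.02, 2.31 and 1.89 TPM in air. All submerged Avatar libraries lay below all others. BnaC05g05090D had 14.2, 11.4 and 16.5 TPM in submerged Zhongshuang 9, against 2.5, 3.19 and 3.04 TPM in air. In Avatar the same sequence had 0.966, 1.20 and 0.654 TPM under submergence and 2.25, 4.36 and 3.79 TPM in air. These 3 sequences overlapped between the cultivars in air and lay apart under submergence, with every submerged Zhongshuang 9 library above every other library.

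BnaA04g17910D was more abundant than these 3, with 163, 80.4 and 72.6 TPM in submerged Zhongshuang 9, against 37.2, 48.7 and 45.7 TPM in Zhongshuang 9 air. Avatar had 29.5, 23.5 and 13.4 TPM of it under submergence and 42.3, 51.3 and 74.6 TPM in air. Replicate 1 was the highest of the submerged Zhongshuang 9 libraries. Counts of BnaC05g05090D and BnaA04g17910D were whole numbers in no library (within 0.001 of a count). The same held for many other members, among them BnaC04g45720D, BnaA05g34210D, BnaC02g22400D, BnaC08g24170D, BnaC08g32040D and BnaC01g38600D. For BnaC07g26170D counts were whole in 2 libraries. Such fractions arise when reads that fit several sequences are divided between them, so values of these copies are uncertain individually.

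Other members of the 16 differed between the cultivars in air already. BnaA02g27490D had 9.28, 4.15 and 3.53 TPM in submerged Zhongshuang 9 and 1.91, 1.79 and 1.28 TPM in Zhongshuang 9 air. In Avatar it had 6.94, 10 and 15.0 TPM under submergence and 25.3, 25.3 and 25.8 TPM in air. BnaC03g46030D had 5.97, 2.48 and 3.17 TPM in submerged Zhongshuang 9, against 0.712, 0.805 and 1.05 TPM in air, while Avatar held 18.5, 22.5 and 27.0 TPM under submergence and 32.2, 32.5 and 34.2 TPM in air. In both sequences the cultivars lay closer together under submergence than in air. BnaC06g29620D, the first of the 60 by its rank, is short, with 141 coding bases and 168 counts over the 12 libraries. It had 1.51, 3.90 and 5.83 TPM in submerged Zhongshuang 9 and was listed at 0, 0.386 and 0 TPM in Zhongshuang 9 air. Avatar had 6.97, 7.21 and 5.30 TPM of it under submergence, against 16.5, 28.2 and 29.7 TPM in air. The cultivars were apart in air and overlapped under submergence.

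**Figure D2:**
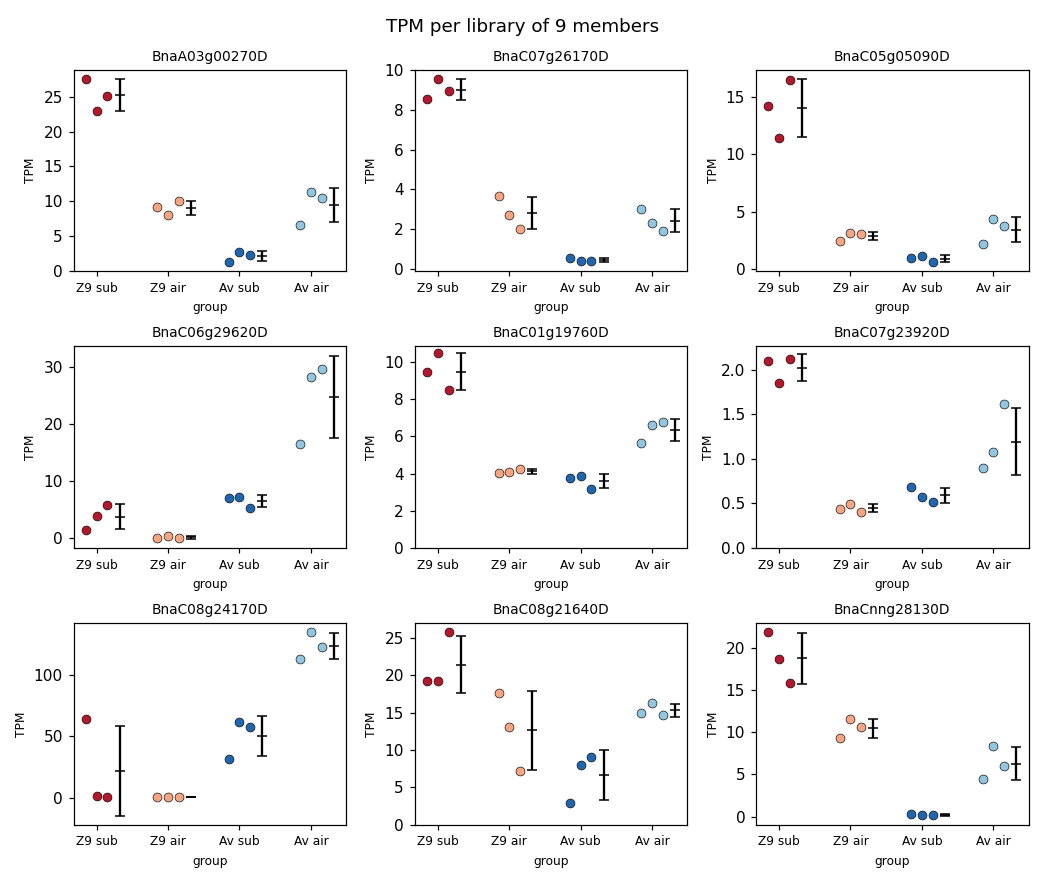
TPM of 9 members in each library (points) by group, with the mean and SD of the 3 libraries (bar beside the points). Z9 sub and Z9 air are Zhongshuang 9 under submergence and in air, Av sub and Av air the same for Avatar. BnaC08g24170D shows a single high submerged Zhongshuang 9 library at 64.2 TPM, and in BnaC08g21640D the lowest Zhongshuang 9 air library and the lowest submerged Avatar library stand away from their groups.

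A full crossing, with Avatar above in air and Zhongshuang 9 above under water and no overlap either time, was seen in 10 members. The share of all sequences with such a crossing was not counted, so the number is a description. BnaC01g19760D had 9.48, 10.5 and 8.49 TPM in submerged Zhongshuang 9 and 3.74, 3.87 and 3.19 TPM in submerged Avatar. In air it had 4.02, 4.08 and 4.24 TPM in Zhongshuang 9 and 5.65, 6.61 and 6.77 TPM in Avatar. Replicates lay close together, and the cultivars changed places. BnaC07g23920D did so at a low level, with 2.10, 1.85 and 2.12 TPM in submerged Zhongshuang 9 and 0.681, 0.574 and 0.514 TPM in submerged Avatar. Its air values were 0.436, 0.491 and 0.407 TPM in Zhongshuang 9 and 0.894, 1.08 and 1.61 TPM in Avatar. BnaC04g45720D was more abundant, with 49.3, 39.6 and 35.5 TPM in submerged Zhongshuang 9 and 29.1, 19.9 and 20.3 TPM in submerged Avatar, against 19.6, 12.3 and 15.7 TPM in Zhongshuang 9 air and 33.5, 38.2 and 48.7 TPM in Avatar air. BnaA05g34210D, BnaA09g51440D, BnaA10g14740D, BnaA04g22470D, BnaC08g27980D, BnaC08g32040D and BnaA01g16570D completed this set. All names in this paragraph were chosen after their values were seen.

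In 13 members Zhongshuang 9 stood above Avatar in air already (background 18.3% of sequences), and it did so under submergence as well. BnaA04g01680D had 15.3, 12.3 and 12.4 TPM in submerged Zhongshuang 9 against 0.108, 0.0920 and 0.0258 TPM in submerged Avatar. In air it had 8.99, 8.84 and 9.33 TPM in Zhongshuang 9 and 0.471, 0.991 and 1.17 TPM in Avatar. BnaCnng28130D had 21.8, 18.7 and 15.8 TPM in submerged Zhongshuang 9 against 0.268, 0.151 and 0.141 TPM in submerged Avatar, and 9.31, 11.6 and 10.6 TPM in Zhongshuang 9 air against 4.45, 8.37 and 6.03 TPM in Avatar air. Avatar was near 0 under water, while in air its highest library came close to the lowest of Zhongshuang 9. BnaC06g26630D had 19.4, 15.6 and 20 TPM in submerged Zhongshuang 9 and 0.436, 1.24 and 0.307 TPM in submerged Avatar, with 12.8, 12.3 and 11.9 TPM in Zhongshuang 9 air and 1.38, 1.43 and 1.89 TPM in Avatar air. The cultivars were far apart in both treatments.

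BnaC02g33700D was weak throughout, at 1.76, 1.74 and 2.16 TPM in submerged Zhongshuang 9 and 1.17, 0.727 and 0.960 TPM in Zhongshuang 9 air. It reached 0.0314, 0 and 0 TPM in submerged Avatar, against 0.404, 0.378 and 0.262 TPM in Avatar air. Avatar lay below Zhongshuang 9 throughout. BnaC02g22400D had 35.0, 42.4 and 48.1 TPM in submerged Zhongshuang 9 and 31.2, 28.6 and 34 TPM in air, a narrow step. In Avatar it held 7.10, 5.28 and 4.38 TPM under submergence and 20.1, 14.3 and 21.1 TPM in air. The other members of this set were BnaC04g01360D, BnaA09g16590D, BnaC01g08860D, BnaUnng03610D, BnaA10g17250D, BnaA02g35680D, BnaC07g33310D and BnaA01g03210D.

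In 19 members the cultivars overlapped in air and Zhongshuang 9 lay above Avatar under submergence, as in BnaA03g00270D. In the other direction, 28 members were higher in Avatar than in Zhongshuang 9 in air without overlap. Under submergence 13 of these overlapped between cultivars, 10 crossed and 5 stayed higher in Avatar (background of Avatar above under submergence 16.5%). Under submergence Zhongshuang 9 was above Avatar without overlap in 42 members, against a background of 13.8% of sequences. In air Avatar was above in 28, against a background of 14.3%. These backgrounds each hold for a single treatment. For patterns that join both treatments, the share over all sequences was not counted. A member that is lower in submerged Avatar and higher in submerged Zhongshuang 9 is pushed towards such an order by its selection, so these counts of members are a description. In bulk leaf RNA, fewer cells of a type and less RNA per cell cannot be told apart for any of them.

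**Figure D3:**
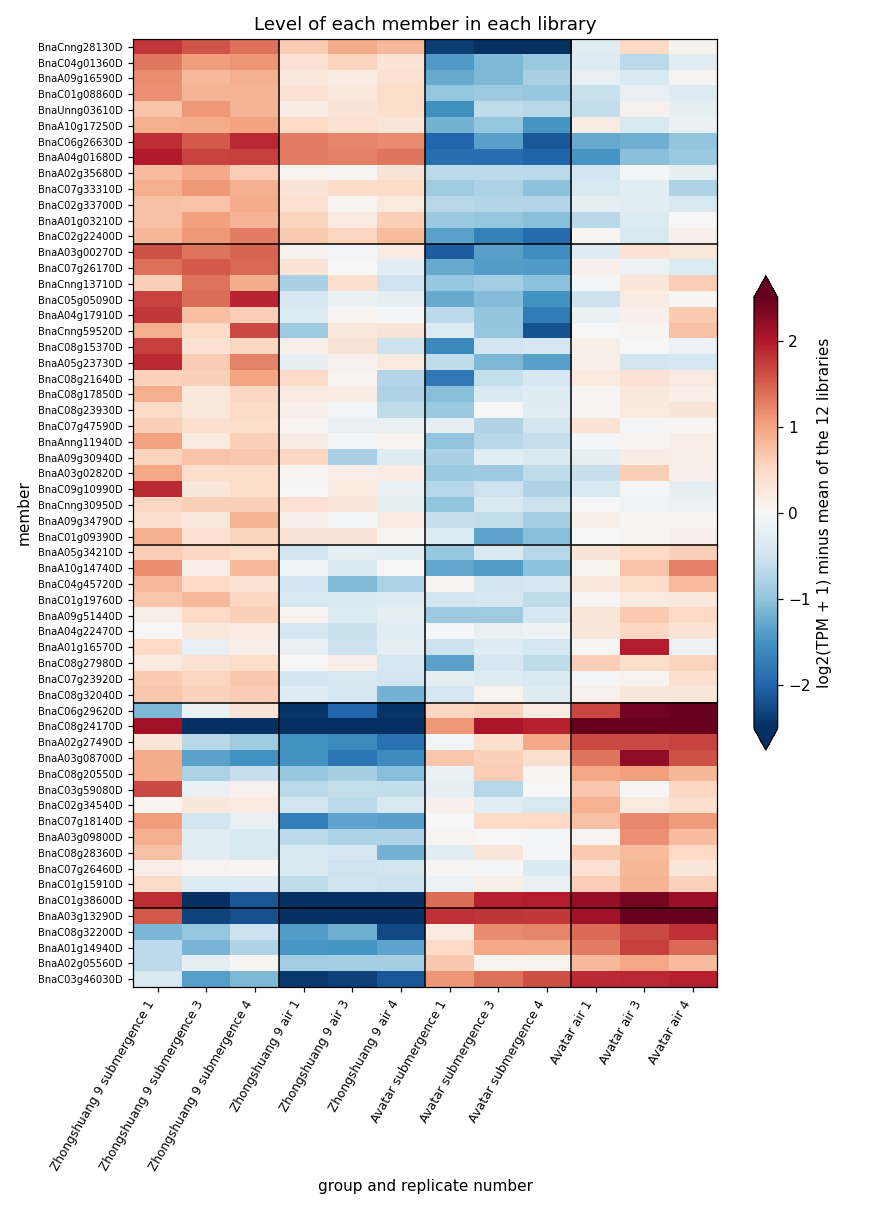
Level of each of the 60 members (rows) in the 12 libraries (columns, by group and replicate number), as log2(TPM + 1) minus the mean of the row, with colours capped at the ends of the bar. Lines part the groups and, from top to bottom, 13 members higher in Zhongshuang 9 in both treatments, 19 that overlapped in air and were higher in Zhongshuang 9 under submergence, 10 that crossed, 13 higher in Avatar in air and overlapping under submergence, and 5 higher in Avatar in both. In several rows of the lower blocks Zhongshuang 9 submergence replicate 1 differs in colour from the other replicates of its group.

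In 15 members the size of the difference in Zhongshuang 9 depended on replicate 1 of its submerged libraries, to unlike degrees. The share of all sequences that depended on it as much was not counted, so the 15 members are a description. Without that library their difference shrank by more than 1.5 times, and the median over the 60 members was 0.60 in place of 0.74. BnaC08g24170D had 64.2, 1.07 and 0.776 TPM in submerged Zhongshuang 9, against 0.545, 0.556 and 0.231 TPM in Zhongshuang 9 air. In Avatar it had 31.1, 61.6 and 57.0 TPM under submergence and 113, 134 and 122 TPM in air. Replicate 1 stood at the level of submerged Avatar, the other replicates near that of Zhongshuang 9 air. Without it the Zhongshuang 9 difference on the log2(TPM + 1) scale was 0.42 in place of 2.11. BnaC01g38600D had 34, 0.471 and 1.23 TPM in submerged Zhongshuang 9 and 0.190, 0.284 and 0.244 TPM in Zhongshuang 9 air. Avatar held 24.6, 36.7 and 37.0 TPM of it under submergence, against 43.0, 49.4 and 42.0 TPM in air. Its Zhongshuang 9 difference was 0.55 without replicate 1 and 1.97 with it.

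BnaA03g13290D, one of the most abundant members in Avatar, had 132, 8.24 and 8.98 TPM in submerged Zhongshuang 9 and 3.96, 2.84 and 2.82 TPM in air. In Avatar it had 162, 159 and 155 TPM under submergence, against 197, 406 and 305 TPM in air. Its Zhongshuang 9 difference was 1.20 without replicate 1 and 2.47 with it. BnaA03g08700D followed the same pattern with 7.16, 0.710 and 0.505 TPM in submerged Zhongshuang 9, against 0.501, 0.228 and 0.441 TPM in Zhongshuang 9 air. Its Avatar libraries held 5.97, 5.53 and 4.64 TPM under submergence and 9.80, 18.9 and 12 TPM in air. The difference in Zhongshuang 9 was 0.21 without replicate 1 and 0.99 with it. Apart from BnaC03g59080D, the rest of the 15 had smaller differences than those above. Without replicate 1 the Zhongshuang 9 difference was 0.60 in place of 1.15 for BnaC03g59080D, 0.47 in place of 0.89 for BnaC08g15370D, 0.42 in place of 0.84 for BnaA03g09800D and 0.34 in place of 0.84 for BnaC09g10990D. It was 0.26 in place of 0.80 for BnaC08g20550D, 0.34 in place of 0.69 for BnaC08g28360D, 0.34 in place of 0.54 for BnaAnng11940D and 0.22 in place of 0.49 for BnaC01g15910D. For BnaA01g16570D it was 0.30 in place of 0.48, for BnaA03g02820D 0.29 in place of 0.47 and for BnaC01g09390D 0.25 in place of 0.39. Of the 15 members that differed by at least 2 between the other submerged Zhongshuang 9 libraries and submerged Avatar, replicate 1 stood nearer to Avatar in 3, beside the 29.07% of all such sequences given above.

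**Figure D4:**
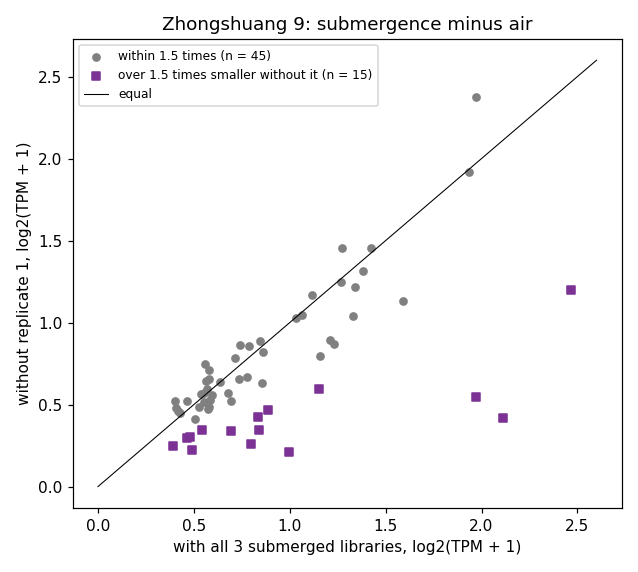
Submergence minus air in Zhongshuang 9 for the 60 members, in mean log2(TPM + 1), with all 3 submerged libraries (horizontal) and without replicate 1 (vertical). Purple squares are the 15 members whose difference is over 1.5 times smaller without it, among them BnaC08g24170D (2.11 with it and 0.42 without). The line marks equal values.

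Chromosome C08 held 10 of the 60 members, 16.7%, while 4.93% of all tested sequences and 9.52% of the 168 with the ordering lay on it. Members on it were lower in Avatar submergence replicate 1 and in Zhongshuang 9 air replicate 4 than in the other replicates of the group, in 10 of 10 cases for each library. By arithmetic, a lowered submerged Avatar library and a lowered Zhongshuang 9 air library each add to the differences by which members were chosen. The same values chose the members, and the share of all C08 sequences lowered in these libraries was not counted. Whether the lowered libraries account for the share of members on C08 was not tested. In Zhongshuang 9 air replicate 4 the C08 members were shifted by -1.0 to -0.19 with a median of -0.77, and the median shift of their 20 nearest tested neighbours was -0.73 to -0.32. In Avatar submergence replicate 1 they were shifted by -1.27 to -0.34 with a median of -0.80, and their neighbours by -0.94 to -0.22. For the 42 placed members on other chromosomes the medians of these shifts were 0.06 in Zhongshuang 9 air replicate 4 and 0.05 in Avatar submergence replicate 1.

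BnaC08g21640D had 19.2, 19.3 and 25.8 TPM in submerged Zhongshuang 9 and 17.7, 13.1 and 7.14 TPM in Zhongshuang 9 air. In Avatar it had 2.93, 7.93 and 9.11 TPM under submergence, against 14.9, 16.3 and 14.7 TPM in air. Its Zhongshuang 9 difference was 0.46 without air replicate 4 in place of 0.79, and its Avatar difference -0.78 without submergence replicate 1 in place of -1.20. BnaC08g32200D, at 31.0, 34.8 and 47.6 TPM in submerged Zhongshuang 9 and 25.8, 29.2 and 13.8 TPM in air, went to 0.42 in place of 0.74 without the air library. In Avatar its 81.4, 158 and 164 TPM under submergence stood against 186, 220 and 250 TPM in air, and without submergence replicate 1 the difference was -0.43 in place of -0.75. Without Zhongshuang 9 air replicate 4 the Zhongshuang 9 difference was 0.37 in place of 0.69 for BnaC08g17850D, 0.43 in place of 0.69 for BnaC08g28360D, 0.37 in place of 0.60 for BnaC08g23930D and 0.29 in place of 0.47 for BnaC08g27980D. Without Avatar submergence replicate 1 the Avatar difference was -0.46 in place of -0.84 for BnaC08g15370D and -0.35 in place of -0.61 for BnaC08g23930D. Off C08 that library also moved BnaUnng03610D, at -0.42 in place of -0.71, and BnaC01g38600D, at -0.27 in place of -0.46. The ordering itself keeps all of these from changing sign. For 9 of the 10 members at least 1 library moved a difference by more than 1.5 times, as against 16 of the 50 members elsewhere, and 2 of the 10 kept the ordering on the TMM scale.

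BnaC08g32040D was 1 of these 2. It had 18.4, 17.3 and 18.1 TPM in submerged Zhongshuang 9 and 8.87, 8.16 and 4.39 TPM in air, again with the lowest air value in replicate 4. Avatar had 8.01, 12 and 9.00 TPM of it under submergence, against 12.3, 13.9 and 13.9 TPM in air. It was the only C08 member among the 16 that passed for both responses and their difference. Among sequences with no place on a chromosome, BnaCnng30950D had 31.7, 33.4 and 33.2 TPM in submerged Zhongshuang 9, against 28.2, 27.2 and 18.2 TPM in Zhongshuang 9 air. Its Avatar values were 10.5, 16.7 and 14.8 TPM under submergence and 22.1, 20 and 19.5 TPM in air. Within its groups it too was lowest in the 2 libraries that were lowered around the C08 members. Its Zhongshuang 9 difference was 0.23 without air replicate 4 in place of 0.43.

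**Figure D5:**
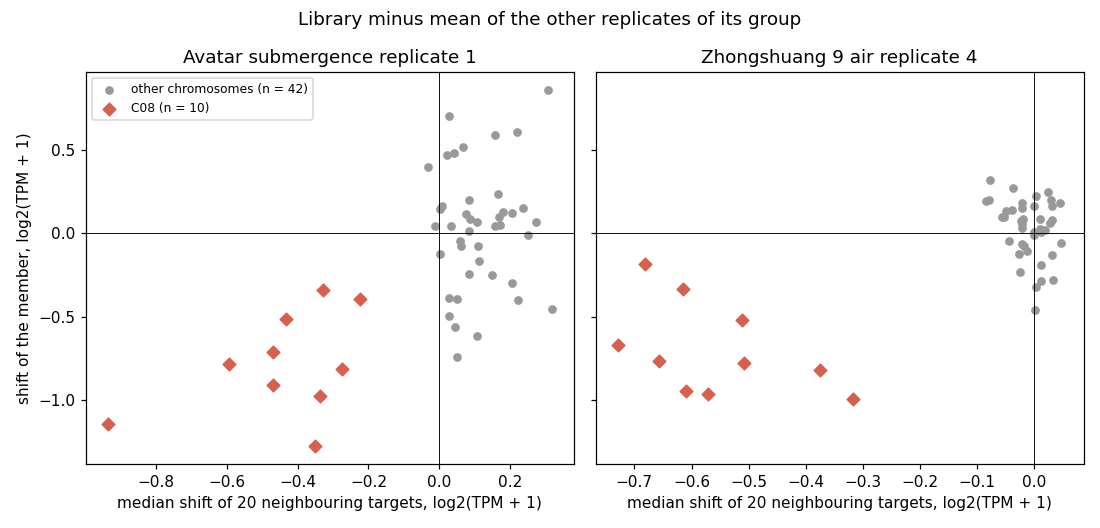
Shift of each placed member (vertical) and median shift of its 20 nearest tested neighbours (horizontal), in log2(TPM + 1), for a library minus the mean of the other replicates of its group. The 10 members on C08 (red diamonds) and their neighbours are all below 0 in Avatar submergence replicate 1 (left) and in Zhongshuang 9 air replicate 4 (right), whereas medians over the 42 other placed members are 0.05 and 0.06.

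The 10 tested sequences on either side of the 52 members with a place had a median difference of 0.23 in Zhongshuang 9 and 0.14 in Avatar, against 0.13 and 0.20 around all tested sequences with a place. Off C08 the same medians were 0.21 in Zhongshuang 9 and 0.14 in Avatar around 42 members. Neighbourhoods that were, by their medians, higher in submerged Zhongshuang 9 and lower in submerged Avatar surrounded 7 of the 52 members (13.5%) and 5.59% of all such sequences. On C08 these shares were 3 of 10 members and 22.9% of all sequences, and on other chromosomes 4 of 42 members and 4.58%. No member lay within 5 tested sequences of another member, although 10 of them lie on C08. On A03 BnaA03g09800D had an Avatar difference of -0.41 without Avatar air replicate 3 in place of -0.66. Other libraries moved 3 members: BnaCnng59520D went to -0.92 in place of -1.43 in Avatar without submergence replicate 4 and to 0.71 in place of 1.11 in Zhongshuang 9 without air replicate 1. BnaA09g30940D went to 0.54 in place of 0.85 without Zhongshuang 9 air replicate 3, and BnaA09g34790D to 0.25 in place of 0.42 without Zhongshuang 9 submergence replicate 4.

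The comparison of the cultivars averaged over both treatments is not a contrast that the rule used, but it rests on the same 12 libraries. It passed the threshold in 43 of the 57 members, against a background of 31.5% (edgeR quasi-likelihood test). Of the 43, 27 were higher in Zhongshuang 9 (background 13.9%) and 16 were lower (background 17.7%). Only 57 of the 60 members passed the filter on low counts, and members had higher levels than most sequences, with a median of 8.51 TPM against 2.91 TPM for all tested. The counts are therefore given as a description of these members. 

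The largest average difference was in BnaA04g01680D, with a log2 fold change of Zhongshuang 9 over Avatar of 5.41 ± 0.26 (SE, 6 libraries each, edgeR adjusted p = 1.73e-07). It was higher in every Zhongshuang 9 library than in any Avatar library. BnaC02g33700D followed with 4.37 ± 0.38 (edgeR adjusted p = 1.00e-05), where the size depends on how counts near 0 in submerged Avatar are handled. BnaC06g26630D was higher by 3.85 ± 0.27 (edgeR adjusted p = 2.08e-06) and BnaCnng28130D by 3.64 ± 0.19 (edgeR adjusted p = 2.58e-07). On the other side BnaC03g46030D had -3.92 ± 0.23 (edgeR adjusted p = 6.53e-07), and all 6 of its Zhongshuang 9 libraries lay below all 6 Avatar libraries. BnaC08g24170D had -4.70 ± 0.99 (edgeR adjusted p = 0.00471), BnaC01g38600D -4.53 ± 0.90 (edgeR adjusted p = 0.00321) and BnaA03g13290D -4.15 ± 0.67 (edgeR adjusted p = 0.000861). In all 3, replicate 1 of submerged Zhongshuang 9 stood nearer to submerged Avatar than to its own group, and without it the log2 fold changes were -6.94 for BnaC08g24170D, -6.41 for BnaC01g38600D and -5.38 for BnaA03g13290D.

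Some of the members first named by rank also differed between cultivars on average. BnaC07g26170D was higher in Zhongshuang 9 by 2.28 ± 0.19 (SE, edgeR adjusted p = 7.52e-06), BnaC05g05090D by 1.81 ± 0.22 and BnaA03g00270D by 1.77 ± 0.21. BnaA02g27490D was lower by -2.46 ± 0.27 and BnaC06g29620D by -3.75 ± 0.46. BnaA04g17910D passed with a smaller difference of 0.93 ± 0.23 (edgeR adjusted p = 0.0118). These differences are set by both treatments, and in BnaA03g00270D they came almost wholly from submergence, where its fitted log2 fold change was 3.65, against -0.11 in air.

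Reference names were found for 4 members in the RefSeq table of the Da-Ae assembly, which matched 3347 of all 101040 identifiers (3.31%), and each is listed there as a protein-coding gene with no descriptive symbol. BnaC07g26170D lies on C7 in that assembly, and BnaC01g15910D and BnaC01g38600D lie on C1. BnaAnng11940D, which the identifier places on no chromosome of the A set, lies on C1 there. It had 114, 66.2 and 85.7 TPM in submerged Zhongshuang 9 and 64.3, 54.5 and 59.1 TPM in air, against 27.7, 34.3 and 37.4 TPM in submerged Avatar and 54.6, 59.1 and 63.5 TPM in Avatar air. BnaC01g15910D had 12.1, 6.45 and 6.58 TPM in submerged Zhongshuang 9 and 5.09, 5.72 and 5.52 TPM in air, and in Avatar 7.62, 9.55 and 7.37 TPM under submergence and 13.4, 16.1 and 13.2 TPM in air.

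By their identifiers 36 members belong to the C set and 23 to the A set, 60% and 38.3%, against 52.5% and 47.2% of all tested sequences. Apart from C08, C07 held 6 members, A03 and C01 5 each, and no other named chromosome more than 4. Coding lengths ran from 141 to 4854 bases with a median of 624, against 1044 for all tested sequences. Counts were whole numbers in every library for 12 members (20%), against 13.9% of tested sequences and 44.7% of all sequences. The 12 include the 3 members that were not tested, so neither share covers a like set. Every other member had a fractional count in some library. The 3 members that were not tested were the short BnaCnng13710D and BnaA09g30940D, and BnaA01g16570D, with 51, 22 and 95 counts over the 12 libraries. BnaCnng13710D had 3.26, 6.21 and 4.37 TPM in submerged Zhongshuang 9 and 0.592, 2.74 and 0.964 TPM in air. In Avatar it held 0.465, 0.534 and 0.376 TPM under submergence and 1.71, 2.46 and 3.32 TPM in air. BnaA01g16570D had an Avatar difference of -1.04, or -0.37 without air replicate 3, with 0.480, 4.68 and 0.302 TPM in Avatar air against 0, 0.160 and 0.0760 TPM in submerged Avatar. Order within such low members is limited by depth.

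The members at the edge of the list were small in Zhongshuang 9. BnaC01g09390D had 3.65, 2.25 and 2.68 TPM in submerged Zhongshuang 9 and 2.10, 2.11 and 1.54 TPM in air, and in Avatar 0.975, 0 and 0.184 TPM under submergence and 1.48, 1.60 and 1.72 TPM in air. Just outside, BnaC09g25870D had 67.8, 67.8 and 73.6 TPM in submerged Zhongshuang 9 and 49.8, 58.8 and 50.6 TPM in air. Its Avatar values were 25.0, 38.0 and 37.5 TPM under submergence and 40.2, 46.7 and 44.0 TPM in air. BnaCnng06070D had 3.99, 1.13 and 2.27 TPM in submerged Zhongshuang 9 and 0.279, 0.602 and 0.650 TPM in air, and in Avatar 0.388, 0.165 and 0.192 TPM under submergence against 0.646, 0.574 and 0.668 TPM in air. A sequence outside the list can thus have a larger difference in 1 cultivar than many members.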

How the data were processed

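RNA of the first true leaf was sequenced in 12 libraries on an Illumina instrument after dUTP marking of the second strand, per the labels' protocols. For each library the authors deposited estimated counts and TPM of 101040 coding sequences, in the columns that kallisto writes, per the file headers. Per the submitters' processing notes the tools were kallisto, limma and edgeR, with no version. Genome build and annotation: not given in the sources used here. Kallisto divides reads that fit several sequences between them, which makes near-identical copies uncertain.

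The members and the rules for naming sequences were set with earlier results of these data known. Estimated counts as the authors deposited them were rounded to whole numbers, filtered by filterByExpr (55674 sequences kept), scaled by TMM and fitted with edgeR 4.0.16 in R 4.3.3. The quasi-likelihood model held 4 group means, with Benjamini-Hochberg adjustment over all sequences. Each standard error is the log2 fold change divided by the root of its F statistic. Named are the 8 members of highest rank, the 4 with the largest average cultivar difference in each direction, those matched to RefSeq and those at the limit of the list; other names were chosen after their values were seen. Alternatives were RLE factors, library totals, no filter, DESeq2 1.42.0, limma 3.58.1 on log2 of TPM with 1 or 0.1 added, a replicate block, and leaving libraries out. The count test was tried on simulated counts for the average cultivar comparison alone. The submergence comparisons were not simulated, nor were libraries or chromosome segments that stand apart. Depth per library is given in the results. No 2 libraries of the same group agreed within sampling noise (lowest chi-square per gene 4.88). Libraries of different groups were not compared in this way.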

Additional observations from a re-analysis of the deposited data

Results flagged for a closer look

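The response to submergence differed between the cultivars by the test of the difference itself in 27 of the 57 members that could be tested (edgeR quasi-likelihood test, adjusted over all 55674 sequences, background 0.438% in this direction). A difference between the cultivars is what the members were chosen for, so this count is a description and adds no support.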

How the results depend on the processing

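In the average cultivar comparison 27 members were higher in Zhongshuang 9 (24 to 28 over all alternatives, 25 to 27 with single libraries left out) and 16 lower (14 to 18, and 14 to 17), while 14745 to 19867 of all sequences passed with single libraries left out. BnaC01g09390D lost this call in 9 alternatives. The submergence difference in Zhongshuang 9 passed in 22 members (16 to 29 with single libraries left out). It passed in 36 with library totals alone and in 35 with limma on log2(TPM + 1). Of all 55674 sequences, 17138 and 16202 passed as higher under these 2 alternatives, in place of 12538 (9784 to 13816 with single libraries left out). In Avatar the submergence difference passed in 45 members (39 to 55), while 10259 of all sequences passed as lower (8621 to 11997). The difference between the responses passed in 49 members with DESeq2 in place of 27. Of all 55674 sequences, 1518 passed in this direction with DESeq2, in place of 244. With single libraries left out, 10 to 32 members passed, and 39 to 371 of all sequences in this direction. Members passing numbered 10 without Zhongshuang 9 air replicate 3, and 17 without Zhongshuang 9 air replicate 4 or submergence replicate 4. They numbered 15 without Avatar submergence replicate 3, Avatar air replicate 4 or Zhongshuang 9 air replicate 1. Members with a fitted value above 0 for Zhongshuang 9 over Avatar numbered 20 of 57 in air and 45 of 57 under submergence. With single libraries left out they numbered 19 to 22 in air and 42 to 48 under submergence. The median over all tested sequences was 0.07 in air and -0.04 under submergence, and their share above 0 was not counted. Selection pushes members towards this order, so these counts are a description. The ordering was kept by 32 members on TMM-scaled and by 32 on RLE-scaled CPM. Applied anew, the choice of 60 shared 39 members with 0.1 in place of 1 added to TPM, and 23 on TMM-scaled CPM. It shared 29 to 52 with single libraries left out, with 29 without Avatar air replicate 1. It shared 11 without 5 libraries that earlier results describe as shifted along chromosome segments (Avatar air replicates 3 and 4, Avatar submergence replicate 1, Zhongshuang 9 air replicate 4 and submergence replicate 1), where Avatar air is replicate 1 alone, itself lowered on A03, and 1573 sequences meet the ordering. Around the members the median difference in Zhongshuang 9 was 0.19 with 20 neighbours on either side in place of 0.23 with 10. Without the 5 libraries the fitted Zhongshuang 9 difference was at or below 0 in 3 of 58 members, BnaC01g09390D (-0.002), BnaC08g17850D and BnaC08g28360D. It was so in 1 of 58 without Zhongshuang 9 air replicate 4 (BnaCnng30950D) and in 1 of 58 without Zhongshuang 9 submergence replicate 4 (BnaA09g34790D), and in no member under the other alternatives. The cause of these changes was not tested. Same-numbered samples correlated at -0.225 to 0.141 in their deviations from the group means, with a median of 0.034. Differently numbered samples of different groups correlated at -0.224 to 0.239, with a median of -0.010. The ranges overlap, and whether the numbers mark a shared sowing or handling cannot be told from them. With the replicate block the average cultivar comparison passed in 27 members higher and 16 lower, and the difference between responses in 20. Of all sequences, 7362 and 9278 passed the former as higher and lower, and 110 the latter in the direction of the members. Depth limits members with few counts.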
